A study of Homo sapiens with 15 samples.

Results

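PPIF encodes cyclophilin D, the cyclophilin of the mitochondrial matrix. It was chosen by its symbol and is 1 of the 15230 genes listed in a table of counts at day 7, and 1 of the 12575 in a table of counts at day 3 and day 7. Its rise at day 7 in these libraries was known when it was chosen, so its own changes are given as levels, fold changes and intervals with no test. It is set beside PPIA (cyclophilin A) and PPIB (cyclophilin B).

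Cyclophilins are peptidyl-prolyl isomerases, enzymes that turn the peptide bond before a proline between its cis and trans forms, and many of them bind the immunosuppressant cyclosporin A. PPIF is made in the cytosol, imported into the matrix and there lowers the calcium load at which the mitochondrial permeability transition pore opens. Prolonged opening of that pore collapses the membrane potential, and in brain and heart the protein is best known for its part in cell death after ischaemia and calcium overload.

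The study used immortalized human astrocytes (IHA), an established fetal line that carries SV40, grown with EGF, engineered so that doxycycline, given at 1 µg/ml, switches on mutant IDH1 (R132H, as the design text of the series has it). RNA was counted by bulk MARS-seq, a method that tags transcripts near their 3′ ends with unique molecular identifiers (UMIs), so that each count is 1 tagged molecule. The groups were day 7 of doxycycline (4 libraries tagged b2 and 1 tagged b1), day 3 of doxycycline (4 libraries, all b2) and no doxycycline, called noDox (3 libraries of b2 and 3 of b1). The tags b1 and b2 stand in the sample titles and were taken as batches. Every sample carries the genotype label of wild-type IDH1, and no library had doxycycline without the inducible gene, so the drug and the mutant enzyme cannot be told apart. Nothing in the labels says that libraries came from separate cultures, so p-values measure the spread between these samples, which may be technical.

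Library totals were 2573290 to 5567651 UMIs for the day 7 table and 1816599 to 4656705 UMIs for the day 3 and day 7 table, with 11 libraries in each and 7 b2 libraries in both. The targeted gene, IDH1, moved by 0.22 ± 0.11 on the log2 scale at day 7 (SE; edgeR adjusted p = 0.178) and by 0.21 ± 0.14 at day 3 (adjusted p = 0.494), which checks nothing if the induced transcript ends outside the counted 3′ end. Of 8 astrocyte markers, SLC1A3, GJA1, SOX9 and S100B were listed and GFAP, AQP4, SLC1A2 and ALDH1L1 were not. The 4 listed ones summed to 91.7 to 95.5 CPM (UMIs per 1000000 UMIs of the library, here on raw totals) in day 7 b2 libraries, against 62.2 to 92.4 in noDox b2 libraries, and to 66.8 in the day 7 b1 library, against 80.7 to 86.9 in noDox b1 libraries.

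PPIF (ENSG00000108179) lies on the plus strand at chr10:79347469-79355337 of GRCh38, over 7869 bases, with 5 annotated transcripts. The transcript PPIF-201 has 6 exons, 207 codons and a 3′ untranslated region of 1495 bases that lies within its last exon. No annotated gene overlaps PPIF, and no pseudogene is annotated under its name or that of PPIB, whereas 88 are annotated for PPIA. Reads that fit a gene and its copies equally well can be dropped or split when they are counted, which makes PPIA the less certain of the references.

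The 250 bases before the PPIF start, chr10:79347219-79347468 on the plus strand of GRCh38.p14 from RefSeq, are shown because the gene's level was higher in every treated library than in the noDox libraries, with the CCAAT box in capitals:
PPIF promoter: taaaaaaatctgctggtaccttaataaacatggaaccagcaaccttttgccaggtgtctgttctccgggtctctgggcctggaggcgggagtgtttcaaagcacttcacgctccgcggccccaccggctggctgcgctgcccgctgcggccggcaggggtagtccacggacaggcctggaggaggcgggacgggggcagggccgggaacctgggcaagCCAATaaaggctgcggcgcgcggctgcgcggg

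Of these bases 65.2% are G or C, against a median of 58% over RefSeq promoters cut in the same way, and there are 20 CpG dinucleotides, against a median of 11. Searched on both strands, CCAAT occurs 1 time, starting 32 bases before the start, and it occurs in 32% of 35116 promoters of this length. TATAAA (in 10.7% of promoters), the GC box GGGCGG (42.6%), the E-box CACGTG (6.34%) and the cAMP response element TGACGTCA (1.65%) have no match here. Neither do the AP-1 letters TGANTCA (6.57%), the amino acid response letters TGATGNAAN (3.13%), the NRF2 letters TGACNNNGC (10.9%), the hypoxia response core ACGTG (18.5%, a core that the E-box can overlap) or the NF-kB motif (5.21%). A match is a description of the letters, not of binding, and the absence of one says only that these letters are not in this window.

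At day 7 PPIF stood higher than without doxycycline in both batches, with one of the largest fold rises among well-expressed genes. The counts were 2837, 2454, 3994 and 3249 UMIs in day 7 b2 libraries 17 to 20, against 850, 1066 and 508 UMIs in noDox b2 libraries 1, 2 and 4. The b1 libraries held 2080 UMIs at day 7, against 1205, 700 and 1199 UMIs without doxycycline. Every day 7 library lay above every noDox library of its batch, also in raw counts, although depth differed between them.

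On library totals adjusted with TMM, an edgeR scaling that allows for differences in RNA composition and is used for CPM below unless raw totals are named, the level was 759, 707, 697 and 725 CPM in day 7 b2 libraries, against 206, 194 and 183 CPM in noDox b2 libraries. It was 829 CPM in the 1 day 7 b1 library, against 295, 273 and 266 CPM in noDox b1 libraries. The lowest day 7 library thus stood far above the highest noDox library of either batch. Group means were 722 ± 27.0 CPM at day 7 (SD, n = 4), against 195 ± 11.7 CPM without doxycycline (SD, n = 3) in b2, and the noDox mean of b1 was 278 ± 15.4 CPM (SD, n = 3).

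Within a group the libraries lay close together. The coefficient of variation of PPIF was 3.75% at day 7 and 6.01% without doxycycline in b2, and 5.53% without doxycycline in b1. Exact binomial intervals, which cover counting error only, ran from 695 to 740 CPM on raw totals for day 7 library 19, the deepest. For noDox b2 library 4, the shallowest of its group, they ran from 172 to 205. PPIF took 0.0722% of all UMIs in day 7 b2 libraries and 0.0203% in noDox b2 libraries.

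**Figure D1:**
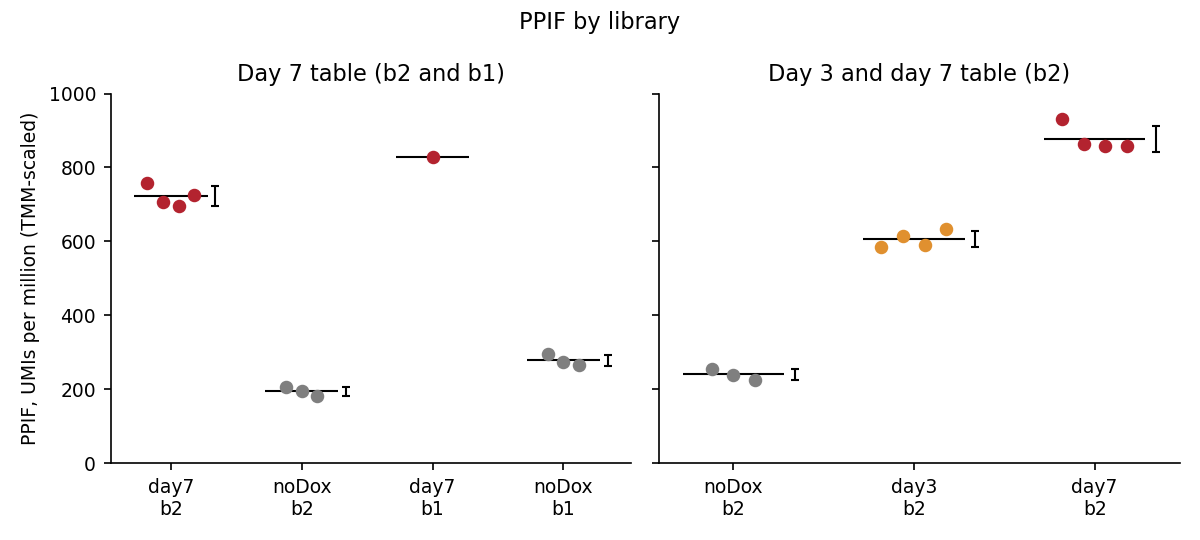
PPIF in every library, in CPM on TMM-scaled totals, with the day 7 table on the left and the day 3 and day 7 table on the right; points are libraries, lines are group means and bars are ± SD (none for the single day 7 b1 library). Day 7 libraries sit at 697 to 829 in the left panel, against 183 to 295 for noDox libraries, and in the right panel the 3 groups step up without overlap.

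With the batch as a term, edgeR put the day 7 change of PPIF at 1.79 ± 0.07 on the log2 scale (SE), with a 95% interval of 1.65 to 1.94, or 3.47-fold (3.14 to 3.83). The median over all 12449 genes tested was -0.02. By signed log2 change, with the largest rise first, PPIF stood at place 15 of those genes. Among the 2093 whose average level was 100 CPM or more it was at place 2, below IL1B (1.90 ± 0.13), an inflammatory cytokine, and just above CXCL1 (1.79 ± 0.29), a neutrophil chemokine.

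By CPM gained in b2 PPIF was at place 10, with 527 CPM more at day 7. In a bulk library a larger share of 1 transcript cannot be split into more cells that make it and more RNA per cell.

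Fitted within batches, the log2 change was 1.91 ± 0.08 in b2 (4 against 3 libraries; 95% interval 1.75 to 2.07) and 1.57 ± 0.09 in b1 (1 against 3 libraries; 1.40 to 1.75). The b1 change minus the b2 change was -0.32 ± 0.13, with an interval of -0.58 to -0.06. The b1 value rests on 1 treated library, which is assumed to vary like the others. At the level of CPM that library was the highest of the day 7 table, and the noDox b1 libraries were all above the noDox b2 libraries.

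The time course was read from the day 3 and day 7 table, where all libraries are b2. PPIF had 858, 1075 and 520 UMIs in noDox libraries 1, 2 and 4, 1040, 1682, 1313 and 1601 UMIs in day 3 libraries 9 to 12, and 2869, 2485, 4049 and 3293 UMIs in day 7 libraries 17 to 20. On the CPM scale the values were 255, 239 and 226 without doxycycline, 586, 615, 591 and 632 at day 3, and 931, 863, 859 and 858 at day 7. No library of one time point reached into the range of another.

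The means were 240.3 ± 14.6 CPM without doxycycline (SD, n = 3), 606 ± 21.5 CPM at day 3 (SD, n = 4) and 878 ± 35.6 CPM at day 7 (SD, n = 4). Against noDox, the log2 change was 1.33 ± 0.07 at day 3 (95% interval 1.19 to 1.48; 2.52-fold). It was 1.87 ± 0.07 at day 7 in the same table (3.65-fold), which is close to the b2 value from the day 7 table. Both changes share the noDox libraries.

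Day 7 stood above day 3 by 0.53 ± 0.06 on the log2 scale (interval 0.41 to 0.66; 1.45-fold). Of the gain in mean CPM that PPIF had at day 7, 57.4% was present at day 3. That is 366 CPM gained over the first 3 days and 638 CPM over 7, or 122 CPM per day to day 3 and 67.9 CPM per day from day 3 to day 7.

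Few other genes had risen as far at day 3. PPIF was at place 10 of 10586 genes by signed log2 change, with the largest rise first, against place 324 for day 7 over day 3. Among the 2035 genes that averaged 100 CPM or more it was at place 2 at day 3, after NDRG1 (1.68 ± 0.11), a gene best known as induced by hypoxia, and before the chemokine CXCL12 (0.94 ± 0.07). Its place was 19 for day 7 over day 3. Medians of all genes tested were 0.00 at day 3 and 0.01 for day 7 over day 3.

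PPIA, the abundant cytosolic cyclophilin that binds cyclosporin A, did not pass the test in any of these comparisons. It had 478, 346, 284 and 277 CPM in day 7 b2 libraries 17 to 20, against 407, 306 and 245 CPM in noDox b2 libraries, and 697 CPM in the day 7 b1 library, against 744, 636 and 571 CPM in noDox b1 libraries. The groups overlapped in both batches. Its log2 change at day 7 was 0.11 ± 0.19 (95% interval -0.32 to 0.53; edgeR adjusted p = 0.752).

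In the time course PPIA averaged 39.1 ± 3.83 CPM without doxycycline (SD, n = 3), 44.8 ± 3.76 CPM at day 3 (n = 4) and 45.2 ± 4.64 CPM at day 7 (n = 4). Its log2 change was 0.19 ± 0.12 at day 3 against noDox (edgeR adjusted p = 0.426) and 0.02 ± 0.11 at day 7 against day 3 (adjusted p = 0.955).

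PPIB, the cyclophilin of the endoplasmic reticulum that assists collagen folding, had 204, 152, 161 and 130 CPM in day 7 b2 libraries 17 to 20, against 165, 144 and 142 CPM in noDox b2 libraries. In b1 it had 211 CPM at day 7, against 159, 148 and 127 CPM without doxycycline. The b2 groups overlapped, and the 1 day 7 b1 library lay above its 3 noDox libraries. The log2 change was 0.24 ± 0.12 (interval -0.01 to 0.49; edgeR adjusted p = 0.188). Without day 7 b2 library 20, the lowest of its group, it was 0.31 and passed (adjusted p = 0.0388), and in b2 alone it was 0.12 (adjusted p = 0.579).

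PPIB averaged 182 ± 16.1 CPM without doxycycline (SD, n = 3), 183 ± 14.04 CPM at day 3 (n = 4) and 194 ± 38.7 CPM at day 7 (n = 4) in the time course. The log2 change was -0.00 ± 0.13 at day 3 (edgeR adjusted p = 1.00) and 0.09 ± 0.12 at day 7 against day 3 (adjusted p = 0.760).

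Set against the references within each library, PPIF kept its rise. Per 1000 PPIB UMIs there were 4567 ± 766 PPIF UMIs in day 7 b2 libraries (SD, n = 4), against 1296 ± 48.1 in noDox b2 libraries (n = 3), and 3925 in the day 7 b1 library, against 1932 ± 143 in noDox b1 libraries (n = 3). The lowest day 7 b2 ratio was 3723 and the highest noDox b2 ratio 1346. In the other table the ratio was 1321 ± 45.8 without doxycycline, 3337 ± 311 at day 3 and 4633 ± 738 at day 7.

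Per 1000 PPIA UMIs there were 2174 ± 460 PPIF UMIs in day 7 b2 libraries, against 629.7 ± 121 in noDox b2 libraries, and 1189 in the day 7 b1 library, against 431 ± 34.4 in noDox b1 libraries. Without doxycycline PPIA itself averaged 650.1 ± 87.4 CPM in b1 and 319 ± 81.9 CPM in b2 (SD, n = 3 each).

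The tables hold the same 7 libraries but count PPIA differently. For PPIF the count in the day 3 and day 7 table was 101% to 102% of that in the day 7 table, library by library, and for PPIB it was 98.1% to 102%. For PPIA it was 7.10% to 14.6%. The count of PPIF thus differed little between the tables, whereas that of PPIA did, and no ratio to PPIA is compared across them. The CPM of PPIF is higher in the day 3 and day 7 table (878 against 722 as the day 7 b2 mean) because that table has smaller totals over the same libraries, such as 3249230 UMIs for day 7 library 17, against 3875489 in the day 7 table.

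**Figure D2:**
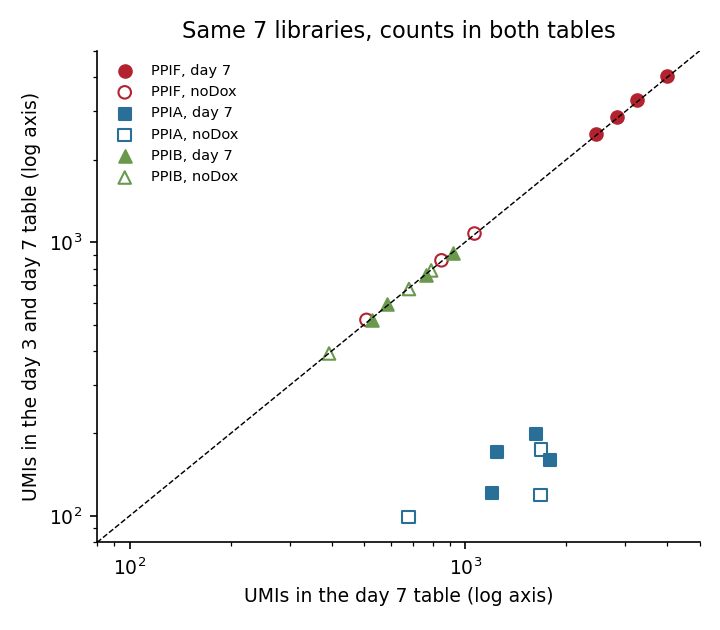
UMIs of PPIF, PPIA and PPIB in the 7 libraries that both tables hold, the day 7 table along the horizontal log axis and the day 3 and day 7 table along the vertical log axis; filled symbols are day 7, open symbols noDox, and the dashed line marks equal counts. PPIF and PPIB lie on the line, and PPIA lies below it at 7.10% to 14.6%.

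The rest of the cyclophilin family is spread over the nucleus, the spliceosome, the cytosol and the nuclear pore. Of 23 cyclophilin genes besides PPIF, 15 were tested at day 7 and 0 were called by edgeR at an adjusted p under 0.05, where 15.7% of all genes tested were called. DESeq2 also called 0, and 1 had an unadjusted p under 0.05. Their log2 changes ran from -0.49 in RANBP2, a nuclear pore protein that stood at only 0.398 to 4.79 CPM in group means, to 0.24 in PPIL1, with a median of 0.01 against -0.02 over all genes.

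PPIL1, a cyclophilin of the spliceosome, was the closest to the threshold. Its log2 change was 0.24 ± 0.08 (edgeR adjusted p = 0.0545). It was 0.10 with no batch term (adjusted p = 0.805) and 0.17 when scaled by library size alone (adjusted p = 0.176). It was 0.32 in b2 alone (adjusted p = 0.0306), 0.31 without the day 7 b1 library (adjusted p = 0.0225) and 0.26 without noDox b1 library 3 (adjusted p = 0.0483). Group means were 56.6 CPM at day 7 and 45.9 CPM without doxycycline in b2, and 70.1 CPM at day 7 and 65.4 CPM without doxycycline in b1.

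At day 3 edgeR called 0 of 14 cyclophilins, with 3.51% of all genes called, 0 with an unadjusted p under 0.05, and 0 called by DESeq2. Their log2 changes ran from -0.15 to 0.32. At day 7 against day 3 edgeR called 0 of 14, with 5.07% of all genes called, 1 with an unadjusted p under 0.05 and 0 called by DESeq2, and the range was -0.20 to 0.25. In none of these comparisons did the range of the other family members reach the change of PPIF.

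**Figure D3:**
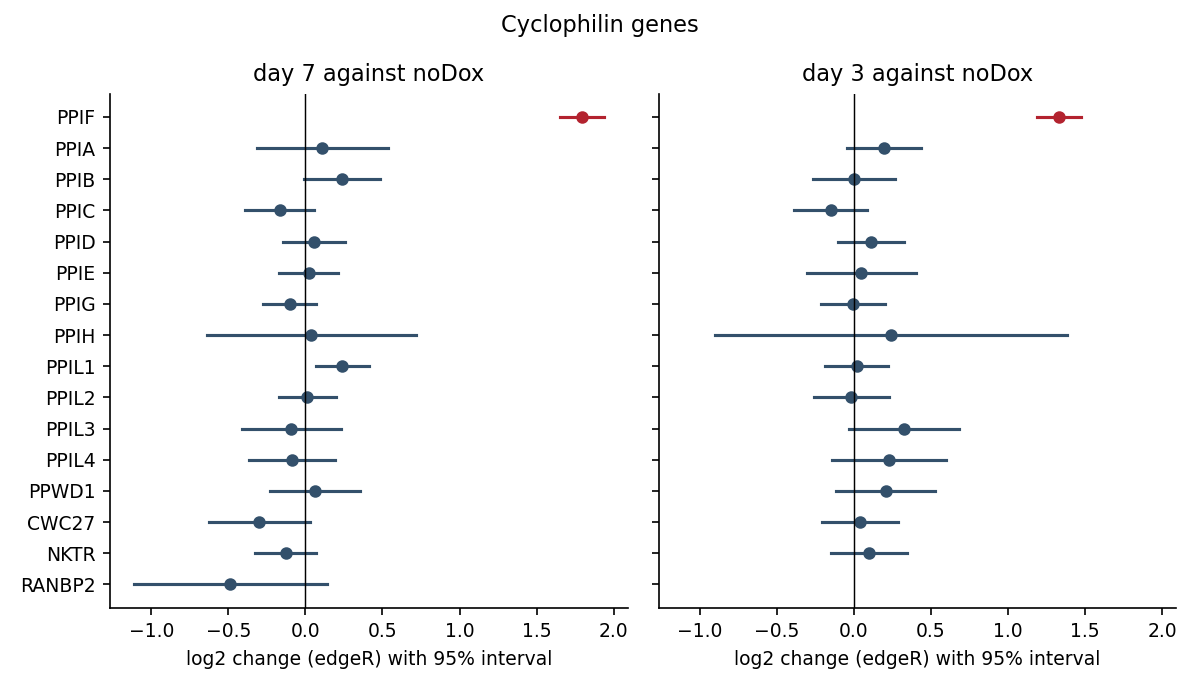
Log2 changes of PPIF and the other cyclophilins tested, day 7 against noDox on the left and day 3 against noDox on the right, with 95% intervals from edgeR; RANBP2 was not tested at day 3. PPIF is at 1.79 and 1.33, and the others lie between -0.49 and 0.32.

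The difference of the day 7 change between batches was tested in 16 cyclophilins other than PPIF, and edgeR called 1, which was lower, with 2.44% of all genes called (1.02% higher and 1.42% lower). CWC27, a splicing factor with a cyclophilin domain, had 10.3 CPM in the day 7 b1 library, against 28.0 CPM in noDox b1 libraries. In b2 it had 51.9 CPM at day 7, against 54.8 CPM without doxycycline. The b1 change minus the b2 change was -1.36 ± 0.29 (edgeR adjusted p = 0.00805). The day 7 arm of b1 is 1 library, assumed to vary like the others, so the batch and that library cannot be told apart.

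Proline isomerases of the other classes, the FKBPs and parvulins, are not cyclophilins but catalyse the same turn. Of 17 tested at day 7, 1 rose and 1 fell, next to 8.43% and 7.28% of all genes. PIN4, a parvulin, rose by 0.27 ± 0.08 (edgeR adjusted p = 0.0197), a call lost without noDox b2 library 2 (adjusted p = 0.0649) or day 7 b2 library 20 (adjusted p = 0.0503). FKBP15 stood at -0.78 ± 0.21 (adjusted p = 0.0144) with only 4.49 CPM at day 7 and 7.38 CPM without doxycycline in b2, and in the b2 libraries of the other table it was at 0.049 (adjusted p = 0.808). Without the day 7 b1 library 4 of the 17 were called, where 15.8% of all genes were, and the added ones were FKBP8 (-0.49; edgeR adjusted p = 0.0217) and FKBP11 (-0.49; adjusted p = 0.0439), both lower. Of 15 tested, edgeR called 0 at day 3 (3.51% of all genes), with 1 at an unadjusted p under 0.05, and 0 at day 7 against day 3 (5.07% of all genes), with 3, and DESeq2 called 0 in each.

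The proteins that PPIF is known to act on or beside form the permeability transition list, which holds the adenine nucleotide carriers, the phosphate carrier, the voltage-dependent anion channels and regulators of the pore. Of 20 tested at day 7, 2 rose and 0 fell, next to 8.43% and 7.28% of all genes. C1QBP, an acidic matrix protein reported to bind PPIF, rose by 0.48 ± 0.06 (edgeR adjusted p = 1.81e-05), at 681 ± 60.2 CPM at day 7 (SD, n = 4) and 485.5 ± 24.3 CPM without doxycycline (SD, n = 3) in b2. VDAC2, a channel of the outer membrane, rose by 0.29 ± 0.07 (adjusted p = 0.00782). Its rise was in b2, at 326 CPM at day 7 and 246 CPM without doxycycline. In b1 it had 217.6 CPM in the 1 day 7 library and 218.0 CPM without doxycycline. The adenine nucleotide carriers SLC25A4, SLC25A5 and SLC25A6 had log2 changes of 0.14 ± 0.08, 0.16 ± 0.07 and 0.06 ± 0.08, with adjusted p = 0.237, 0.100 and 0.633.

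Without the day 7 b1 library, 4 of the 20 rose and 1 fell, where 8.43% of all genes rose and 7.42% fell. Besides C1QBP and VDAC2 these were HK1 (0.24), a hexokinase that docks on the outer membrane, the phosphate carrier SLC25A3 (0.20) and the outer membrane protein TSPO (-0.26).

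At day 3, 1 of 18 genes of the list rose and 0 fell, where 1.84% of all genes tested rose and 1.67% fell. C1QBP rose by 0.26 ± 0.07 (edgeR adjusted p = 0.0327). At day 7 against day 3, 1 of 18 rose and 0 fell, where 2.76% of all genes tested rose and 2.31% fell. It was again C1QBP, by 0.21 ± 0.06 (edgeR adjusted p = 0.0498), and DESeq2 called 0. Scaled by library size alone, both calls of C1QBP were lost (adjusted p = 0.0934 and 0.0710). Both were also lost when any of several single libraries was left out. This was so in 6 of 11 such fits at day 3 (adjusted p up to 0.168) and in 10 of 11 at day 7 against day 3 (adjusted p up to 0.163). Over the time course C1QBP averaged 606 ± 30.4 CPM without doxycycline, 727 ± 22.5 CPM at day 3 and 843 ± 67.3 CPM at day 7.

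ATP synthase is a protein complex to which PPIF is known to bind, at its peripheral stalk. Of its 19 genes tested at day 7, 3 rose and 0 fell, next to 8.43% and 7.28% of all genes. ATP5MC1, a gene for the membrane c subunit, rose by 0.41 ± 0.07 (edgeR adjusted p = 0.000208) and ATP5PF, for stalk subunit F6, by 0.40 ± 0.08 (adjusted p = 0.000911). ATP5PB, for stalk subunit b, rose by 0.28 ± 0.09 (adjusted p = 0.0316). That call was lost in turn without noDox b2 libraries 1, 2 or 4 or day 7 b2 libraries 18 or 19 (adjusted p = 0.0628 to 0.123). The rise of ATP5PB was in b2, at 253 CPM at day 7 and 191 CPM without doxycycline. In b1 it had 170.6 CPM in the 1 day 7 library and 174.5 CPM without doxycycline. Without the day 7 b1 library 6 of the 19 rose, where 8.43% of all genes did, and the added ones were ATP5F1A (0.28), ATP5F1B (0.21) and ATP5F1C (0.22), all for subunits of the catalytic F1 part.

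At day 3, 1 of the 19 rose, where 1.84% of all genes did, ATP5MC1 at 0.26 ± 0.07 (edgeR adjusted p = 0.0493, up to 0.200 with 1 library left out), and DESeq2 called 0. At day 7 against day 3 edgeR called 0 of 19, where 5.07% of all genes were called, with 4 at an unadjusted p under 0.05, and DESeq2 called 0.

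Calcium loading of the matrix is the trigger of the pore. Of 17 genes of mitochondrial calcium transport tested at day 7, 2 rose and 0 fell, next to 8.43% and 7.28% of all genes. The inner membrane protein GHITM rose by 0.39 ± 0.07 (edgeR adjusted p = 0.000466), at 144 ± 7.29 CPM at day 7 and 107 ± 3.40 CPM without doxycycline in b2. VDAC2, which is on this list too, was given above. MCU, the pore of the calcium uniporter, was at -0.00 ± 0.12 (adjusted p = 0.995).

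At day 3 edgeR called 0 of 15 of these genes, where 3.51% of all genes were called, with 3 at an unadjusted p under 0.05, and DESeq2 called 0. At day 7 against day 3, 1 of 15 rose and 1 fell, where 2.76% of all genes tested rose and 2.31% fell. GHITM rose by 0.24 (edgeR adjusted p = 0.0457) and MCUB, a uniporter subunit that lowers its activity, fell by 0.31 (adjusted p = 0.0140). With 1 library left out the adjusted p reached 0.166 for GHITM and, without day 3 library 12, 0.0533 for MCUB.

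PPIF shares the matrix with the chaperones and proteases that fold and clear imported proteins. Of 19 of their genes tested at day 7, 4 rose and 1 fell, next to 8.43% and 7.28% of all genes. The chaperonin pair HSPE1 and HSPD1 rose by 0.46 ± 0.07 (edgeR adjusted p = 5.14e-05) and 0.38 ± 0.08 (adjusted p = 0.00262). HSPD1 had 705 CPM at day 7 and 501 CPM without doxycycline in b2. In b1 it had 358 CPM in the 1 day 7 library and 338 ± 19.9 CPM (SD) without doxycycline. The processing peptidase subunit PMPCA rose by 0.34 ± 0.08 (adjusted p = 0.00679) and the presequence protease PITRM1 by 0.26 ± 0.08 (adjusted p = 0.0220). CLPX, the unfoldase of the ClpXP protease, was at -0.29 ± 0.10 (adjusted p = 0.0458).

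The call of CLPX was lost in 10 of 11 fits that left out 1 library (adjusted p up to 0.238), and that of PITRM1 without noDox b2 library 1 or 4 or day 7 b2 library 20 (adjusted p = 0.0611 to 0.0762). At day 3, 1 of 18 rose, where 1.84% of all genes did, HSPD1 at 0.44 ± 0.08 (edgeR adjusted p = 0.00149). HSPD1 averaged 444 ± 15.6 CPM without doxycycline, 605 ± 25.6 CPM at day 3 and 674 ± 90.0 CPM at day 7. At day 7 against day 3 edgeR called 0 of 18, where 5.07% of all genes were called, with 6 at an unadjusted p under 0.05, and DESeq2 called 0. Every change named in these lists was smaller in size than that of PPIF, at day 7 and day 3 against noDox and at day 7 against day 3 alike.

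The genes with a pattern most like that of PPIF were taken by Pearson correlation of log2 CPM with PPIF. It was computed over the 11 libraries of each table, and the lower value was used. In the day 7 table the noDox mean of each library's batch was first subtracted, gene by gene. The choice was among 5538 genes that averaged at least 20 CPM over the libraries of each table. The libraries share their groups, and 7 of them are in both tables, so these values describe a shared step between groups and carry no test. The 6 genes were ANGPTL4 (0.971 over the day 7 table and 0.979 over the other), CCT3 (0.969 and 0.975), ZDHHC16 (0.973 and 0.968), GFPT2 (0.974 and 0.966), VEGFA (0.961 and 0.961) and HBEGF (0.959 and 0.954). Within groups of the second table their correlations with PPIF were between -0.07 and 0.68.

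ANGPTL4, a secreted inhibitor of lipoprotein lipase, was the one of the 6 that changed by more than PPIF in the b2 time course. It averaged 5.74 ± 0.37 CPM without doxycycline, 18.9 ± 1.94 CPM at day 3 and 43.8 ± 3.43 CPM at day 7. ANGPTL4 passed the limit of 20 CPM on average only through its day 7 libraries, so its large rise is tied to its choice. Its log2 change was 1.73 ± 0.19 at day 3 and 1.20 ± 0.13 at day 7 against day 3. In b1 its day 7 change was 1.37, below the 1.57 of PPIF, and with no batch term it was 1.68 (edgeR adjusted p = 0.0559).

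The other 5 changed by less. CCT3, a subunit of the cytosolic chaperonin, averaged 573 ± 9.14 CPM without doxycycline, 684 ± 14.5 CPM at day 3 and 765 ± 31.7 CPM at day 7. VEGFA, the angiogenic growth factor, averaged 92.3 ± 2.72, 139 ± 10.2 and 165 ± 15.6 CPM at the same times. GFPT2, which opens hexosamine synthesis, averaged 133 ± 5.75, 179 ± 2.85 and 191 ± 13.5 CPM. HBEGF, a ligand of the EGF receptor, and ZDHHC16, a palmitoyltransferase, had log2 changes at day 7 of 0.86 ± 0.10 and 0.48 ± 0.08.

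The 3 genes most opposite to PPIF were SERPING1 (-0.951 and -0.967), the C1 inhibitor of complement, and the Wnt receptors FZD2 (-0.944 and -0.982) and FZD6 (-0.962 and -0.941). SERPING1 averaged 62.9 ± 1.21 CPM without doxycycline, 36.6 ± 1.76 CPM at day 3 and 21.7 ± 0.45 CPM at day 7. It stepped down in the same order in which PPIF stepped up, with no overlap between the 3 groups. Its choice by correlation with PPIF over these libraries largely sets that order. FZD2 averaged 55.7 ± 2.30, 36.2 ± 2.00 and 29.3 ± 1.98 CPM, and FZD6 40.2 ± 4.35, 25.0 ± 1.96 and 22.0 ± 2.46 CPM.

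**Figure D4:**
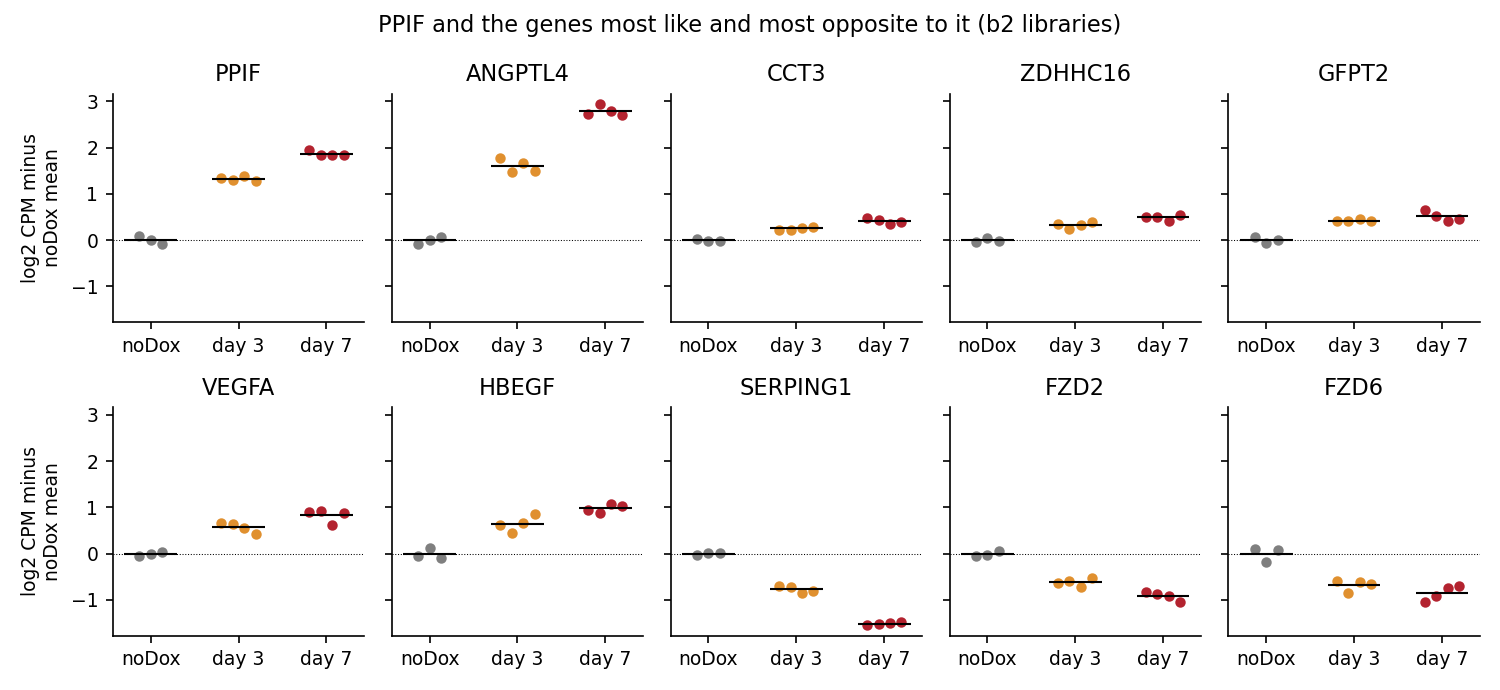
Log2 CPM minus the noDox mean in the b2 libraries of the day 3 and day 7 table, for PPIF, the 6 genes most like it and the 3 most opposite to it; points are libraries and lines are group means. ANGPTL4 rises above PPIF, the other 5 like genes rise by less, and SERPING1, FZD2 and FZD6 go down.

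Around PPIF, 25 other genes are annotated within 500 kb on either side, 5 of which were tested at day 7 and 4 in the other table. ZMIZ1, a transcriptional coactivator 30941 bases upstream, rose by 0.34 ± 0.09 at day 7 (edgeR adjusted p = 0.00962) and by 0.40 ± 0.08 at day 3 (adjusted p = 0.00259). It was at -0.07 ± 0.07 at day 7 against day 3 (adjusted p = 0.678). Scaled by library size alone, its day 7 value was 0.27 (adjusted p = 0.0525), and with no batch term it was 0.37 (adjusted p = 0.0832).

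ZCCHC24, 26988 bases downstream on the other strand, rose by 0.33 ± 0.10 at day 7 (edgeR adjusted p = 0.0246) and by 0.48 ± 0.11 at day 3 (adjusted p = 0.00821). At day 7 against day 3 it was at -0.28 ± 0.10 (adjusted p = 0.0878). The day 7 call was lost in b2 alone (0.24, adjusted p = 0.168), without the day 7 b1 library (0.23, adjusted p = 0.152) and without noDox b2 library 2 (0.32, adjusted p = 0.0616). It was lost too in the b2 libraries of the other table (0.20, adjusted p = 0.214) and with no batch term (0.15, adjusted p = 0.784). Scaled by library size alone, the value was 0.26 (adjusted p = 0.0675).

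The antisense gene ZMIZ1-AS1, with 3 to 22 UMIs per library in the day 7 table, rose by 1.11 ± 0.29 at day 7 (edgeR adjusted p = 0.0110). That call was lost without noDox b2 library 2 (1.02, adjusted p = 0.0533) and in the b2 libraries of the other table (0.99, adjusted p = 0.0575). ZMIZ1-AS1 was at -0.63 ± 0.49 at day 3 (adjusted p = 0.560) and rose by 1.63 ± 0.40 at day 7 against day 3 (adjusted p = 0.0127). The sources used here do not say whether counting used the strand, so reads of an antisense gene and its partner may not be told apart. NUTM2B-AS1 and AL135925.1 were not called. No neighbour had a change as large as that of PPIF at day 3 or at day 7 against noDox.

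Markers of other cell types were read beside these values. Of 3 endothelial markers 0 were listed, and the microglial AIF1, PTPRC and CX3CR1 were not listed either. The microglia and macrophage markers CD68 and CSF1R, 2 of 5 listed, summed to 56.4 to 63.2 CPM on raw totals in day 7 b2 libraries, against 42.8 to 45.8 in noDox b2 libraries. They summed to 31.8 in the day 7 b1 library, against 31.6 to 41.6 in noDox b1 libraries. Fibroblast and pericyte markers, 3 of 5 listed with DCN and LUM not listed, summed to 282 to 363 in day 7 b2 libraries, against 590 to 645 in noDox b2 libraries, and to 866 in the day 7 b1 library, against 946 to 1020 in noDox b1 libraries. The part of these markers in the change of PPIF was not tested.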

How the data were processed

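The authors deposited 2 tables of UMI counts, made per the submitters' processing notes with bcl2fastq, cutadapt, STAR 2.4.2a, HTSeq and DESeq2 on hg38. The counts are whole numbers, not normalized, and every gene listed reaches a count of 6 or more in 1 library or more. The 55 other per-sample columns were not used. In the day 3 and day 7 table, the descriptions naming 2 untreated columns fit a b1 as well as a b2 sample. These columns were assigned to b2 as a group, and by counts each shared library matched itself best in the other table (r of 0.869 to 0.887).

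Each table was fitted on its own with edgeR 4.0.16 (robust quasi-likelihood, TMM, filterByExpr) in R 4.3.3, day 7 against noDox with a batch term, and adjusted by Benjamini-Hochberg over 12449 and 10586 genes, with a threshold of 0.05. CPM values use TMM-scaled totals, and log2 CPM for correlations a prior count of 2. The common biological coefficient of variation was 0.0991 and 0.0843. The fits were also run on simulated counts, drawn with the spread they had estimated and with no batch difference, as a check of the code only. DESeq2 1.42.0, other scalings, no filter, no batch term, b2 alone, the other table and leaving out each library were alternatives. Named were PPIF, the cyclophilins, called members of each list (at most 6), listed genes within 500 kb, and the 6 most like and 3 most opposite genes. PPIL1, MCU and the adenine nucleotide carriers were added after their values were seen. Some genes of the lists are not reported here and are not counted in them, though they stay in the fits. PPIF, the lists and the rules were chosen with earlier results of these data known. Figures were drawn with matplotlib 3.10.9. Promoter motifs were searched in RefSeq windows of GRCh38.p14.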

Additional observations from a re-analysis of the deposited data

Results flagged for a closer look

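Among 4 day 7 b2 libraries, library 17 stood apart in PPIF in the day 3 and day 7 table. It had 931 CPM and the nearest library 863 CPM, a gap that was 0.930 of the group's range and past Dixon's critical value for 4 samples. The gap depends on the TMM scaling, as libraries 17 to 20 had 883, 859, 869 and 853 CPM on raw totals. PPIF in library 17 was not flagged in the day 7 table, where it had 759 CPM and the nearest library 725 CPM. In the day 7 table, VEGFA had 123 CPM in day 7 b2 library 19 and 151 CPM in the nearest, a gap of 0.888 of the range. Chance alone sets apart about 1 in 20 groups.

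The day 7 change differed between batches in 5 of the named genes (edgeR, b1 minus b2, with 1 treated b1 library). Of all genes tested, 2.44% were called in the same way. The spread of the treated b1 library was taken from the other groups, so the batch and that library cannot be told apart. ANGPTL4 and SERPING1 had been chosen from these same libraries by their correlation with PPIF. ANGPTL4 differed by -1.58 (1.37 in b1 and 2.98 in b2; adjusted p = 0.000888). SERPING1 differed by 0.96 (-0.53 in b1 and -1.48 in b2; adjusted p = 0.00458). CWC27 differed by -1.36 (-1.45 in b1 and -0.08 in b2; adjusted p = 0.00805). ATP5F1B, for the beta subunit of ATP synthase, differed by -0.64 (-0.44 in b1 and 0.22 in b2; adjusted p = 0.00607). HSPA9, the matrix Hsp70, differed by -0.62 (-0.34 in b1 and 0.30 in b2; adjusted p = 0.0338), a call lost without noDox b2 library 2 (adjusted p = 0.0759) or 4 (0.0799), noDox b1 library 2 (0.0903) or 3 (0.0679), or day 7 b2 library 19 (0.0506).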

How the results depend on the processing

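The log2 change of PPIF at day 7 was positive under every alternative run. It was 1.66 with no batch term, 1.91 in b2 alone, 1.87 in the b2 libraries of the other table and 1.57 in b1 alone (added after seeing the data), and 1.76 to 1.90 with 1 library left out, the highest without the day 7 b1 library. At day 3 it was 1.29 to 1.37 with 1 library left out. It was 1.42 without the 2 columns of shared description, a fit that leaves 1 noDox library (added after seeing the data). Day 7 against day 3 it was 0.50 to 0.56, and b1 minus b2 -0.36 to -0.27, or -0.39 by library size alone.

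Of the cyclophilins besides PPIF, the main fit called 0 of 15 at day 7, where it called 1955 genes in all. With DESeq2 size factors in edgeR 1 was called, beside 1958 genes in all, and with no filter 1, beside 1965. In b2 alone 1 of 15 was called, beside 1744 genes in all. With 1 library left out 0 to 1 were called. Of the permeability transition list, the main fit called 2 of 20. With no batch term 1 was called, beside 323 genes in all. There were 4 of 20 called in b2 alone, beside 1744 genes in all. Another 4 of 18 were called in the b2 libraries of the other table, beside 1649 genes in all. Leaving out 1 library gave 2 to 5, beside 1405 to 1970 genes in all. The log2 change of FKBP15, negative at day 7, turned to 0.049 in the b2 libraries of the other table. With no batch term, 323 genes in all were called at day 7, and 11 of the 13 list genes called lost the call (C1QBP and ATP5MC1 kept it), against 3 by library size alone (ATP5PB, PIN4 and PITRM1). At day 3, 372 genes were called, 191 to 578 with 1 library left out (213, 191 and 207 without noDox libraries 1, 2 and 4, 229 and 228 without day 3 libraries 10 and 12, and 578 without day 7 library 17) and 40 without the 2 columns of shared description. Leave-one-out counts were 1405 to 1970 at day 7 and 387 to 645 for day 7 against day 3. The causes were not tested. No paired analysis was possible because the groups compared share no replicate numbers. With 1 treated library, b1 gives little precision, and genes of few UMIs, such as ZMIZ1-AS1, RANBP2 and FKBP15, have wide intervals.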
